A study of Sus scrofa with 40 samples.

Results

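Transcripts of the TTT complex (TELO2, TTI1 and TTI2) and of the 6 kinases of the phosphoinositide 3-kinase-related family (ATM, ATR, PRKDC, MTOR, SMG1 and TRRAP) were followed in pig (Sus scrofa) oocytes that differed in their state of mitochondrial DNA (mtDNA). The 9 genes were chosen by symbol. All 9 have a row among the 38794 gene rows of both deposited count tables, and 8 of them passed the expression filter in each comparison, TELO2 being the exception. The set was built around TTI2, which had been picked for its difference between the states in single oocytes. The single-oocyte state difference is therefore given as a description, with no test, for every member. The state difference in pools and the difference between library types were not the values that chose the members, and they were tested. A choice from single-oocyte values may still favour genes well counted there. The library-type difference of TTI2 is therefore not wholly independent of the choice.

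The pigs were commercial crosses (Large White, Duroc and Berkshire), and all oocytes were mature oocytes at metaphase II, the arrest in which an egg awaits fertilisation. The 4 groups were 5 mtDNA-deficient pools, 6 mtDNA-normal pools, 14 single mtDNA-deficient oocytes and 15 single mtDNA-normal oocytes. For pooled oocytes the series design gives n = 5 per group, and 6 pools carry the normal label. Titles of single oocytes carry BCBneg (deficient) or BCBpos (normal) and those of pools neg or pos, with no account of the term in the labels used here. No treatment or engineered allele is named in the labels, which state neither how many oocytes a pool held, nor the level of mtDNA in any sample, nor whether replicates came from separate animals. The p-values therefore cover only the variation among these samples, and that variation may be technical. Pools were extracted with a column kit and amplified by single-primer isothermal amplification, and single oocytes were extracted in the tube and made into libraries with a low-input kit that uses pig-specific depletion primers. Kit, extraction and library type cannot be told apart.

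Kinases of this family are very large serine and threonine kinases, apart from TRRAP, which has lost its catalytic residues and serves as a scaffold. Newly made kinases of the family are handed to the TTT complex, which works with the chaperone HSP90 and the R2TP co-chaperone to stabilise and assemble them, so that the family depends on a shared maturation step. ATM, ATR and the DNA-dependent kinase PRKDC respond to DNA damage, MTOR sets growth and translation by nutrient supply, and SMG1 starts nonsense-mediated mRNA decay. A mature oocyte is transcriptionally silent, so its transcript levels reflect storage and decay of maternal mRNA.

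Pools held 14480546 to 29538982 counts and single oocytes 706929 to 3067523 counts, with 14207 to 19245 and 10053 to 15441 genes detected. Levels are CPM, that is counts scaled to the library's total, and log2 differences come from edgeR after TMM scaling, so the sign of a small log2 difference can depart from that of the mean CPM. In single oocytes 1 row, LOC102158401, took 46.7% to 76.0% of the counts, against at most 0.0275% in pools, which lowers the CPM of every other gene there. The 11 listed oocyte markers had counts in all groups, with a summed level of 6861 to 15265 CPM in pools against 1630 to 6073 CPM in single oocytes. The 18 cumulus and granulosa markers that have a row summed to 62.4 to 193 CPM in deficient against 107 to 167 CPM in normal pools, and to 18.8 to 54.3 CPM in deficient against 7.82 to 42.5 CPM in normal oocytes. Of these 18 genes 5 stood at 0 in every pool and 6 in every oocyte, among them AMH and AMHR2 in both, while VCAN averaged 66.0 and INHBA 50.3 CPM in pools, and INHBA 15.2, VCAN 4.07 and STAR 2.55 CPM in oocytes. The part of such RNA in the results was not tested. In a bulk library, fewer cells of a type and less RNA per cell cannot be told apart.

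In pools the mtDNA state was not accompanied by a detectable change of any member. edgeR's quasi-likelihood test with Benjamini-Hochberg adjustment called 0 of the 8 tested members and 0 of the 13540 tested genes, a background of 0%. Before adjustment 726 genes had p under 0.05, none of them a member, and DESeq2 called 28 genes and limma-voom 0. Log2 differences (deficient minus normal) lay above 0 for 5 members and below 0 for 3, with a median of 0.13, beside a median of -0.0019 over all tested genes. A count of 0 here does not show equal levels, since the standard errors of the members ran from 0.17 to 0.66 on the log2 scale.

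TTI2, the subunit around which the set was built, stood at 37.2, 45.2, 27.6, 30.1 and 53.8 CPM in the deficient pools A1, A2, A3, B2 and B4. It stood at 34.8, 16.2, 41.5, 36.5, 45.7 and 38.0 CPM in the normal pools A2, A3, A4, B1, B2 and B4. The groups overlapped almost wholly, with normal A3 the lowest of all and deficient B4 the highest. The log2 difference was 0.33 (SE 0.25, edgeR adjusted p = 0.921), and without the 2 pools that had the fewest genes detected (deficient A2 and normal A3) it was 0.06 (SE 0.24).

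TTI1, the scaffold subunit of the complex, was sparse, at 2.14, 0.898, 2.47, 10.5 and 1.89 CPM in deficient pools and 2.77, 0.275, 2.25, 4.40, 2.84 and 6.18 CPM in normal pools. A single library, deficient B2, lay above all others. The log2 difference was 0.32 (SE 0.66, edgeR adjusted p = 0.962) with that library and -0.52 without it, so its sign rested on 1 pool. TELO2, the third subunit, had 0 counts in all 11 pools. Over all pools a count of 0 allows up to 0.0116 CPM, and in a single pool up to 0.102 to 0.207 CPM, counting error only.

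**Figure D1:**
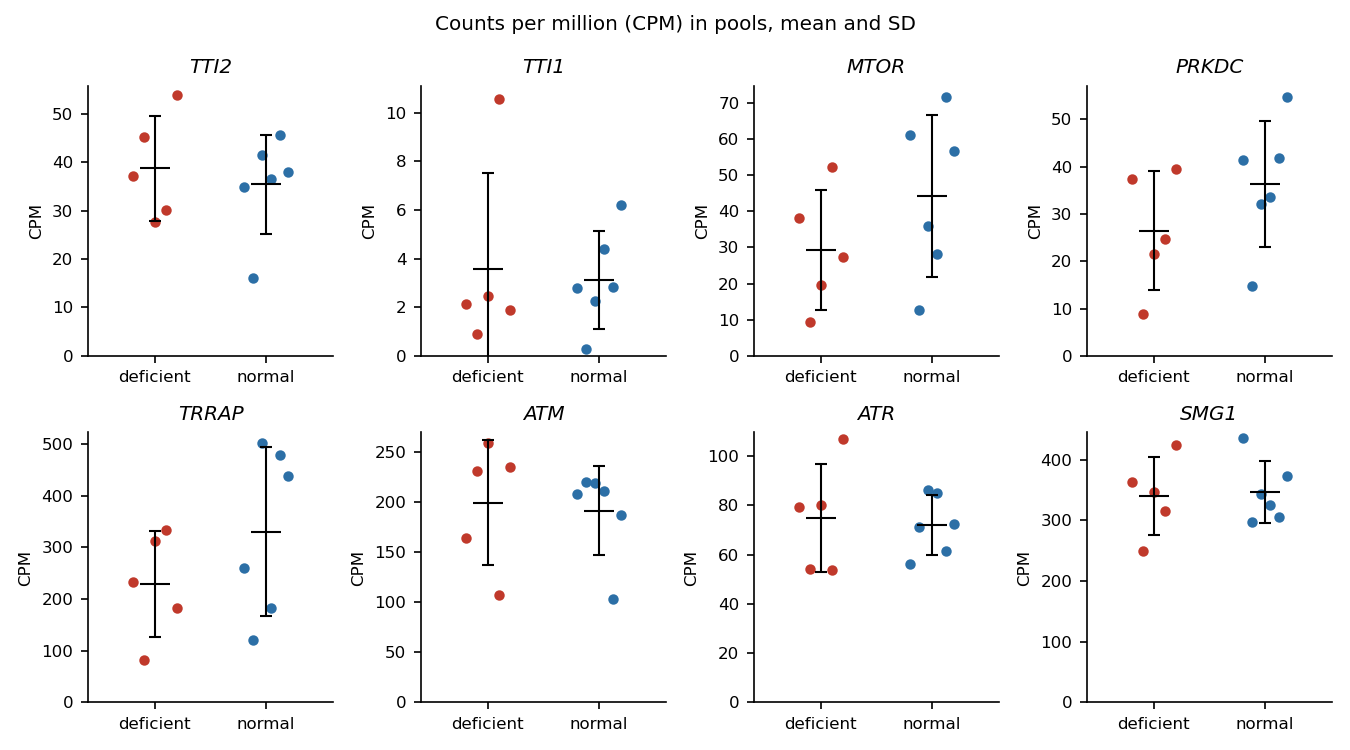
Level of 8 members in CPM (linear axes from 0) in 5 deficient (red) and 6 normal (blue) pools. Each point is a pool, the bar is the mean and the whiskers are the SD. The states overlap in every panel, and TTI1 in 1 deficient pool lies at 10.5 CPM.

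Among the kinases, MTOR, the catalytic subunit of both mTOR complexes, had the widest relative spread over the 11 pools, with a coefficient of variation of 54.7%. It stood at 38.1, 9.32, 19.6, 52.1 and 27.5 CPM in deficient pools and 60.9, 12.6, 35.9, 28.1, 71.5 and 56.6 CPM in normal pools. Of the 5 deficient pools, 4 lay below the normal median, and 3 normal pools lay above all deficient ones. The means were 29.3 ± 16.5 CPM (SD, n = 5) and 44.3 ± 22.4 CPM (SD, n = 6). The log2 difference of -0.45 (SE 0.37, edgeR adjusted p = 0.921) was close to its own error.

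PRKDC, the kinase that acts with the Ku proteins in DNA end joining, stood at 37.4, 8.77, 21.6, 24.7 and 39.6 CPM in deficient against 41.4, 14.8, 32.1, 33.6, 41.8 and 54.7 CPM in normal pools. Its log2 difference was -0.33 (SE 0.31, edgeR adjusted p = 0.922). TRRAP, the scaffold of the NuA4 and SAGA histone acetyltransferase complexes, stood at 234, 81.1, 312, 333 and 182 CPM in deficient against 260, 120.3, 501, 183, 478 and 438 CPM in normal pools. All 5 deficient pools lay below the normal median, although the groups overlapped, and the log2 difference was -0.36 (SE 0.33, edgeR adjusted p = 0.922). For these 3 genes the same pools, deficient A2 and normal A3, gave the lowest value of their group.

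ATM, which is activated by double-strand breaks, stood at 164, 231, 259, 107 and 236 CPM in deficient against 208, 221, 219, 211, 104 and 188 CPM in normal pools. The lowest pools were those coded B2 in both states. ATR, which responds to single-stranded DNA at stalled forks, stood at 79.5, 54.4, 80.3, 53.8 and 107 CPM in deficient against 56.0, 71.4, 86.1, 85.0, 61.3 and 72.5 CPM in normal pools. SMG1, which phosphorylates UPF1 in mRNA surveillance, was the steadiest member, at 363, 249, 347, 315 and 424 CPM in deficient against 435, 297, 343, 325, 306 and 374 CPM in normal pools. The log2 differences were 0.20 (SE 0.31) for ATM, 0.17 (SE 0.23) for ATR and 0.10 (SE 0.17) for SMG1, with edgeR adjusted p of 0.944, 0.939 and 0.954. In mean CPM SMG1 was lower in deficient pools, at 340 ± 64.4 (SD, n = 5) against 347 ± 51.5 (SD, n = 6), so its sign depended on the scaling.

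The members did not vary independently from pool to pool, and several followed the number of genes detected. How many of all genes follow that number was not counted, so this cannot be read as a trait of the members. MTOR tracked it closely, with Pearson r = 0.975 between log2 CPM (TMM-scaled) and genes detected over 11 pools (permutation p = 1e-05, the smallest that 100000 permutations can give, 8e-05 adjusted over the 8 members) and Spearman rho = 0.973 (permutation p = 1e-05, adjusted 8e-05). Without the 2 pools farthest from the median, deficient A2 and normal A3, r was 0.933. Within the 6 pools coded A, which include those 2, it was 0.999. For the 5 pools coded B no value is given, as they were too few. The relation for MTOR was the same size in plain CPM, with r = 0.972.

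ATM went the other way, with r = -0.796 (permutation p = 0.00393, adjusted 0.0156) and rho = -0.864 (permutation p = 0.00106, adjusted 0.00424), r = -0.728 without the 2 farthest pools, r = -0.861 among the A pools and r = -0.613 in plain CPM. ATR also fell with genes detected by Pearson, at r = -0.661 (permutation p = 0.0291, adjusted 0.0388), while rho = -0.691 missed the threshold after adjustment (permutation p = 0.0227, adjusted 0.0604). Its r was -0.574 among the A pools, -0.891 without the 2 farthest pools and -0.154 in plain CPM.

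PRKDC rose with genes detected by Pearson, at r = 0.763 (permutation p = 0.00584, adjusted 0.0156) with rho = 0.600 (permutation p = 0.0565, adjusted 0.0816). TRRAP gave r = 0.680 (permutation p = 0.0220, adjusted 0.0351) with rho = 0.591 (permutation p = 0.0612, adjusted 0.0816), and TTI1 r = 0.675 (permutation p = 0.0203, adjusted 0.0351) with rho = 0.645 (permutation p = 0.0364, adjusted 0.0727). Without deficient A2 and normal A3, r dropped to 0.294, 0.247 and 0.332, so the size of these 3 relations leaned on those pools. Leaving them out also narrows the range of genes detected. Among the A pools, which include both of those pools, r was 0.949, 0.610 and 0.646. In plain CPM over all 11 pools r was 0.834 for PRKDC, 0.780 for TRRAP and 0.742 for TTI1, with rho of 0.818, 0.636 and 0.782. TTI2 (r = -0.218, permutation p = 0.520, rho = -0.0818, permutation p = 0.818) and SMG1 (r = -0.420, permutation p = 0.199, rho = -0.382, permutation p = 0.247) missed the threshold, and in plain CPM their r changed sign to 0.236 and 0.480. The pools were permuted across the states.

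**Figure D2:**
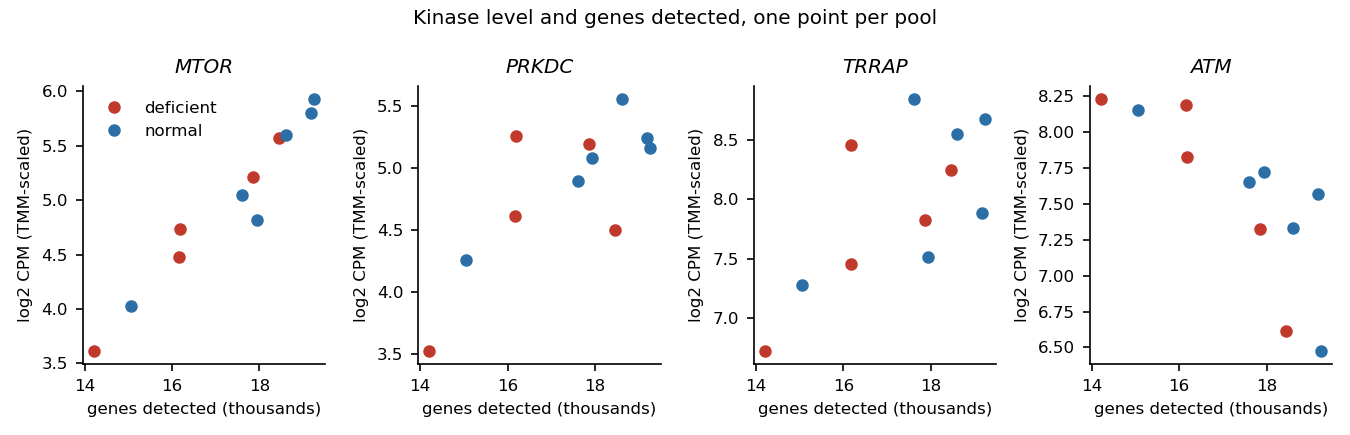
Log2 CPM (TMM-scaled) of MTOR, PRKDC, TRRAP and ATM against the number of genes with at least 1 count, 1 point per pool (red deficient, blue normal). MTOR rises along 1 line for both states (r = 0.975), while ATM falls (r = -0.796).

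Genes detected also differed in mean between the states, at 16574 ± 1666 in deficient pools (SD, n = 5) and 17938 ± 1556 in normal pools (SD, n = 6). In a fit with that number as a term, a setting chosen after seeing the data, the log2 state difference of MTOR was 0.14 (SE 0.20), that of PRKDC 0.03 (SE 0.28), that of ATM -0.25 (SE 0.22) and that of ATR -0.03 (SE 0.21), each of the opposite sign to the fit without it. TRRAP moved to -0.02 (SE 0.29), while TTI2 stood at 0.24 (SE 0.29), SMG1 at 0.04 (SE 0.16) and TTI1 at 1.10 (SE 0.58). None of these was past the threshold with or without the covariate, and adjusted p under edgeR was at least 0.753 with it. As a description over the same 11 pools, ATM and MTOR ran against each other (r = -0.840, rho = -0.909), while ATM and ATR (r = 0.739), ATM and SMG1 (r = 0.726) and PRKDC and MTOR (r = 0.765) ran together. All these values share the library and its depth.

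In single oocytes TTI2 was lower in the deficient state, which is the difference that led to its choice. Oocytes of a state that share the first number of the title were added up, a number whose meaning the labels do not give, which made 4 deficient and 3 normal sums. TTI2 stood at 209, 240.2, 237 and 265 CPM in the deficient sums 1 to 4 and at 407, 339 and 335 CPM in the normal sums 2 to 4. The groups did not overlap, which held for 62 of the 11964 tested genes in this direction, a background of 0.518%. The means were 238 ± 23.1 CPM (SD, n = 4) and 360 ± 40.3 CPM (SD, n = 3), and the log2 difference was -0.79 (SE 0.21). With the number as a block on the 6 sums that share one it was -0.70 (SE 0.17).

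Oocyte by oocyte the groups overlapped. TTI2 ran from 192 to 603 CPM with a median of 222 CPM in 14 deficient oocytes and from 177 to 590 CPM with a median of 312 CPM in 15 normal oocytes. Of the deficient oocytes 12 lay below the normal median, and 1 deficient oocyte was the highest of all 29. In CPM of the total without LOC102158401 and the ribosomal RNA row RN18S, 13 deficient oocytes lay below the normal median and 4 normal oocytes lay above every deficient one. The table's column headers carry 1 of 2 dates, whose meaning is not given. Among oocytes of 17 September TTI2 averaged 278 ± 140 CPM in 8 deficient against 354 ± 96.4 CPM in 9 normal oocytes, and among those of 22 September 228 ± 16.98 CPM in 6 deficient against 359 ± 162 CPM in 6 normal oocytes. With each oocyte as a sample, the log2 difference was -0.63 within the first date and -0.83 within the second. Over the sums it was -0.84 without the deficient oocyte of highest TTI2.

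The pools gave TTI2 the opposite sign, 0.33 (SE 0.25) against -0.79 (SE 0.21), and no sample is shared between the tables. Because the single-oocyte value chose the gene, that contrast is not tested. edgeR called 0 of 11964 genes in the sums, a background of 0%, with 231 at an unadjusted p under 0.05, while DESeq2 called 2 and limma-voom 0.

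TTI1 stood in the sums at 3.83, 1.21, 7.66 and 7.11 CPM in the deficient and 13.4, 7.90 and 4.28 CPM in the normal sums. The groups overlapped, and the log2 difference was -0.98 (SE 0.55), between -1.37 and -0.60 without 1 sum. It was -0.60 without normal sum 2, where 53 of 63 counts came from 1 oocyte. By date the mean was 7.11 CPM in deficient against 5.54 CPM in normal oocytes of 17 September, and 3.98 against 9.10 CPM on 22 September, so the direction differed by date. In single oocytes TTI1 had no count in 4 of 29 libraries and at most 53 counts in any. TELO2 had 8 counts in 5 of the 29 oocytes, 2 of 14 deficient and 3 of 15 normal, and all of them carried the date of 17 September. Over all oocytes that is 0.194 CPM, with a 95% exact Poisson interval of 0.0839 to 0.383 CPM for counting error only.

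Mean plain CPM of all 6 kinases was higher in deficient than in normal single oocytes, from 214 against 212 CPM for TRRAP to 23.9 against 12.1 CPM for ATM. Without LOC102158401 and RN18S in the total, TRRAP turned to 578 against 644 CPM. MTOR then stood at 137 against 136 CPM, PRKDC at 44.2 against 43.1 CPM and ATR at 29.2 against 27.6 CPM. ATM stayed higher, at 61.7 against 37.3 CPM, as did SMG1, at 249 against 190 CPM. After TMM scaling ATM and SMG1 had the largest positive log2 differences. SMG1 ran from 55.7 to 165 CPM with a median of 87.2 CPM in 14 deficient oocytes and from 40.1 to 97.8 CPM with a median of 54.9 CPM in 15 normal oocytes. None of the 14 deficient oocytes lay below the normal median, and 8 normal oocytes lay below every deficient one. In CPM without those 2 rows these counts were 1 and 4, and the medians were 234 and 176 CPM. In the sums SMG1 stood at 80.8, 66.5, 83.9 and 115 CPM in the deficient and 74.5, 45.9 and 67.2 CPM in the normal state, which overlapped, with a log2 difference of 0.28 (SE 0.20).

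ATM ran from 8.81 to 47.0 CPM with a median of 22.8 CPM in deficient against from 2.39 to 29.7 CPM with a median of 10.7 CPM in normal oocytes, from 3 to 57 counts per oocyte. In the sums it stood at 18.5, 8.87, 21.8 and 30.6 CPM against 8.70, 12.5 and 12.7 CPM. Deficient sum 2 lay within the normal range and the other 3 above it, and the log2 difference was 0.56 (SE 0.36). Within each of the 3 shared title numbers the deficient sum was the higher, and with the number as a block the difference was 0.57 (SE 0.35). It stayed above 0 in all 19 other settings, between 0.38 and 0.82, as did that of SMG1, between 0.22 and 0.40.

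The other 4 kinases had log2 differences within 1 standard error of 0, namely ATR -0.06 (SE 0.42), PRKDC 0.20 (SE 0.35), MTOR -0.01 (SE 0.28) and TRRAP -0.14 (SE 0.23). Each of these changed sign in at least 2 of the 19 other settings. MTOR stood at 61.6, 17.7, 52.2 and 60.0 CPM in the deficient and 37.8, 35.3 and 50.4 CPM in the normal sums, with the lowest sum and the 3 highest sums all deficient. PRKDC stood at 18.8, 18.9, 20.8 and 12.4 CPM against 14.6, 9.65 and 18.0 CPM. ATR, with 1 to 36 counts per oocyte, stood at 4.88, 10.5, 11.9 and 13.1 CPM against 8.28, 10.3 and 8.90 CPM.

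TRRAP differed by date within the deficient state. Its level ran from 219 to 327 CPM with a median of 246 CPM in the 8 deficient oocytes of 17 September and from 107 to 199 CPM with a median of 155 CPM in the 6 of 22 September, with no overlap. Normal oocytes ran from 119 to 279 CPM and from 116 to 301 CPM on those dates, which overlapped. With each oocyte as a sample, the log2 state difference was 0.13 (SE 0.14) within 17 September and -0.72 (SE 0.21) within 22 September. Over the sums it was -0.14 (SE 0.23). The SE within a date treats oocytes as independent, although those with the same title number may share a source. This split by date was picked after the values were seen and is given with no test.

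**Figure D3:**
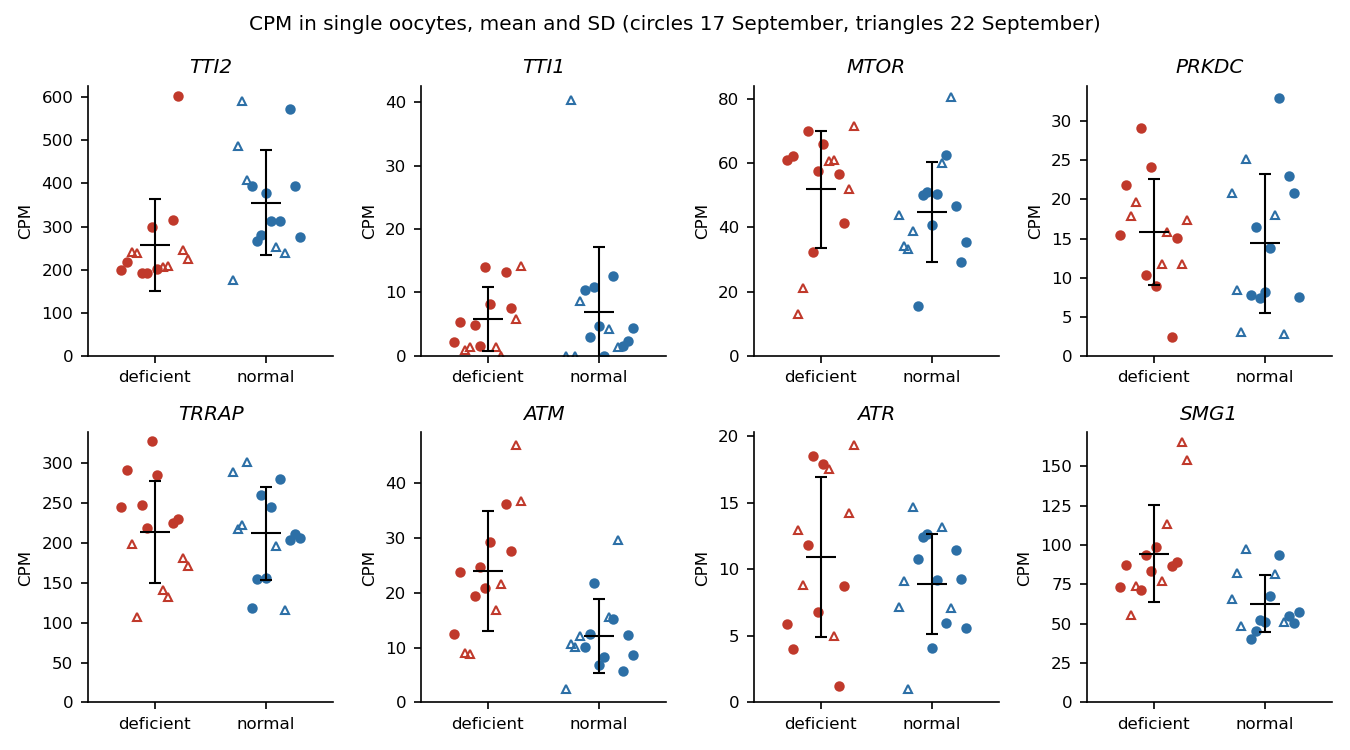
Level of 8 members in CPM (linear axes from 0) in 14 deficient (red) and 15 normal (blue) single oocytes, with circles for 17 September and triangles for 22 September. Bars are means and whiskers SD. TTI2 is lower in most deficient oocytes apart from 1 at 603 CPM, SMG1 is higher in most, and the deficient TRRAP values part by date.

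Most members differed between library types, in both directions. Of the 8 tested members edgeR called 6 between single oocytes and pools with state in the model, 3 higher and 3 lower in single oocytes. That is to be read against a background in which 69.1% of all 15977 tested genes were called, 35.1% higher and 34.0% lower, so a share of 6 in 8 is near the background. The order of the members is given as a description.

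TTI2 had the largest log2 difference of the 8 members in the fit over all libraries with TMM scaling. As it was picked from single-oocyte values, that choice may favour a higher level there. Its level was 37.0 ± 10.1 CPM in pools (SD, n = 11, range 16.2 to 53.8) and 308 ± 123 CPM in single oocytes (SD, n = 29, range 177 to 603), with no overlap. The log2 difference (single minus pool) was 3.53 (SE 0.21, edgeR adjusted p = 5.23e-13) and stayed between 3.13 and 3.99 in 26 other settings. In order of level TTI2 was thus highest in normal oocytes, then in deficient oocytes, which overlapped them, then in both kinds of pool, which overlapped each other. TTI1 was also higher in single oocytes, at 6.39 ± 7.97 CPM (SD, n = 29) against 3.33 ± 2.87 CPM (SD, n = 11), by log2 1.59 (SE 0.50, edgeR adjusted p = 0.00718), a call that was absent in deficient libraries alone (1.08, edgeR adjusted p = 0.221).

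MTOR was higher in single oocytes by log2 0.90 (SE 0.28, edgeR adjusted p = 0.00591), at 48.3 ± 16.9 CPM against 37.5 ± 20.5 CPM in pools, with overlapping ranges. In normal libraries alone it was not called (0.56, edgeR adjusted p = 0.189). ATM, ATR and SMG1 were lower in single oocytes. ATM stood at 195 ± 50.8 CPM in pools but 17.8 ± 10.7 CPM in single oocytes (log2 -3.19, SE 0.28, edgeR adjusted p = 3.84e-10), with every oocyte below every pool. ATR stood at 73.4 ± 16.4 and 9.88 ± 4.98 CPM (log2 -2.38, SE 0.24, edgeR adjusted p = 4.35e-09), and SMG1 at 343 ± 54.7 and 78.0 ± 29.5 CPM (log2 -1.70, SE 0.15, edgeR adjusted p = 2.77e-10). In plain CPM their ranges did not overlap between library types either. In CPM of the total without LOC102158401 and RN18S, both SMG1 and ATR overlapped. Oocytes then reached 356 CPM for SMG1 and 54.5 CPM for ATR, against lowest pools of 249 and 54.0 CPM. How many of all genes part in this way was not counted.

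PRKDC and TRRAP were not called, at log2 -0.38 (SE 0.26, edgeR adjusted p = 0.191) and 0.23 (SE 0.24, edgeR adjusted p = 0.394). Scaling matters here, since relative log expression (RLE) size factors move the median log2 difference of all genes from 0.03 to 0.47. Under them PRKDC turned to 0.09 and TRRAP passed at 0.69 (edgeR adjusted p = 0.00970), beside that shifted median. In plain CPM TRRAP was lower in single oocytes, at 213 ± 59.7 against 284 ± 143 CPM. Taking LOC102158401 and RN18S out of the total turned that direction. For the deficient state TRRAP then averaged 578 CPM (single oocytes) against 229 CPM (pools). For the normal state the averages were 644 against 333 CPM, and ranges overlapped in both states. The signs of the 6 called members were the same under all 26 other settings.

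A ratio within a library does not depend on that scaling. The counts of TTI2 per count of TRRAP ran from 0.0828 to 0.557 with a median of 0.134 in the 11 pools and from 0.615 to 3.32 with a median of 1.35 in the 29 oocytes, with no overlap. The shift from pool to single oocyte was therefore unequal between TTI2 and TRRAP. TTI2 was the member with the largest log2 difference by library type, and TRRAP was not called. How many other pairs of genes part in this way was not counted, so the ratio cannot be read as a trait of the pathway. Kit and library type cannot be told apart in this shift.

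**Figure D4:**
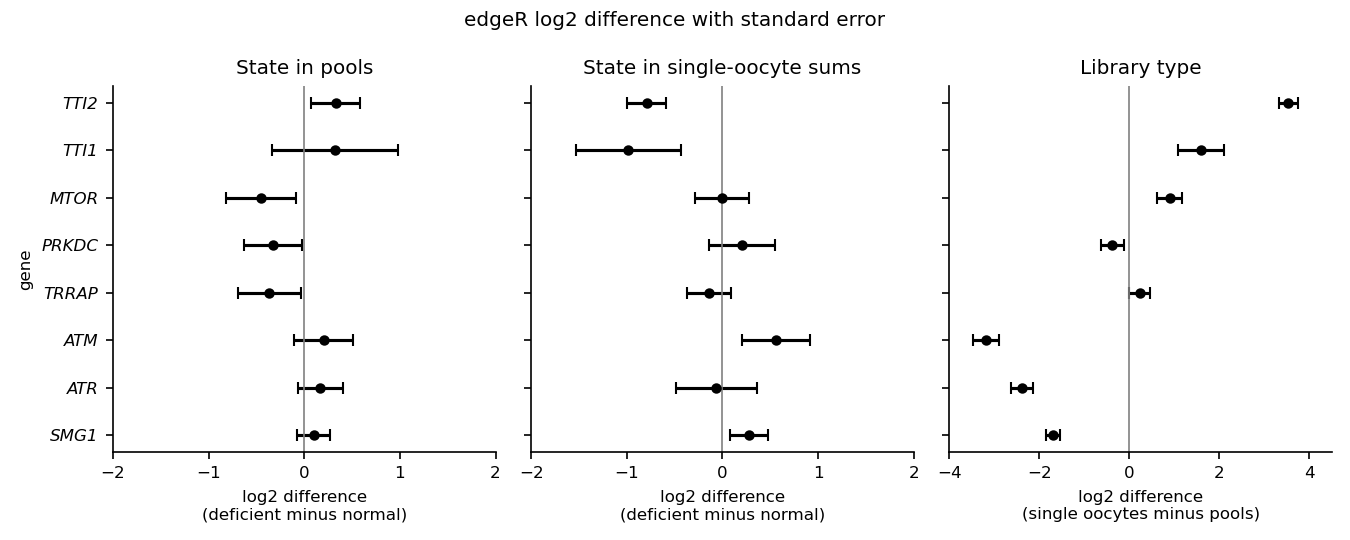
Log2 difference from edgeR (points) with its standard error (whiskers) for 8 members, between states in pools (left), between states in single-oocyte sums (middle) and between library types (right, wider axis). TTI2 lies at 0.33, -0.79 and 3.53 in these panels, and ATM, ATR and SMG1 lie below 0 by library type.

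The gene whose level was most like that of TTI2 over single oocytes was SIRT4, a mitochondrial sirtuin. Over 29 oocytes and 5815 genes with a mean of at least 10 CPM, its log2 CPM (TMM-scaled) had Pearson r = 0.880 and Spearman rho = 0.892 with TTI2. The next were the uncharacterised LOC100622870 (r = 0.704, rho = 0.677) and LOC102168193 (r = 0.692, rho = 0.637). These are the highest of many values and are given with no test. All are measured in the same libraries, and r with SIRT4 was 0.794 in plain CPM (rho = 0.786), where it was also first.

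Within states and dates the size of the likeness depended on scale and measure. With TMM scaling Pearson r was 0.870 and rho 0.785 in 14 deficient oocytes, while in plain CPM rho was 0.248 there with r = 0.758. In 15 normal oocytes the TMM-scaled r was 0.849 and rho 0.832, and in plain CPM they were 0.758 and 0.736. By date the TMM-scaled r was 0.921 in 17 oocytes of 17 September and 0.828 in 12 of 22 September. SIRT4 ran from 1316 to 20341 CPM with a median of 3973 CPM in single oocytes, and the oocyte with the highest SIRT4 was the deficient one with the highest TTI2, at 603 CPM. Like TTI2, SIRT4 had a lower level in the deficient sums, 3740 ± 1695 CPM (SD, n = 4) against 7021 ± 2328 CPM (SD, n = 3), with a log2 difference of -1.18 (SE 0.32).

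In pools SIRT4 was low, at 0.969 ± 0.788 CPM (SD, n = 11, from 0 to 2.40), and its r with TTI2 there was 0.547. It was higher in single oocytes by log2 13.15 (SE 0.56, edgeR adjusted p = 8.25e-16). Over the 11 pools and 6397 genes, the genes most like TTI2 were LOC100626038 (r = 0.863, rho = 0.827), the small GTPase gene ARF1 (r = 0.850, rho = 0.809) and the zinc finger gene ZNF180 (r = 0.840, rho = 0.618). Among oocytes no other member came near SIRT4, as TRRAP had r = 0.310 with TTI2 and SMG1 -0.247.

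**Figure D5:**
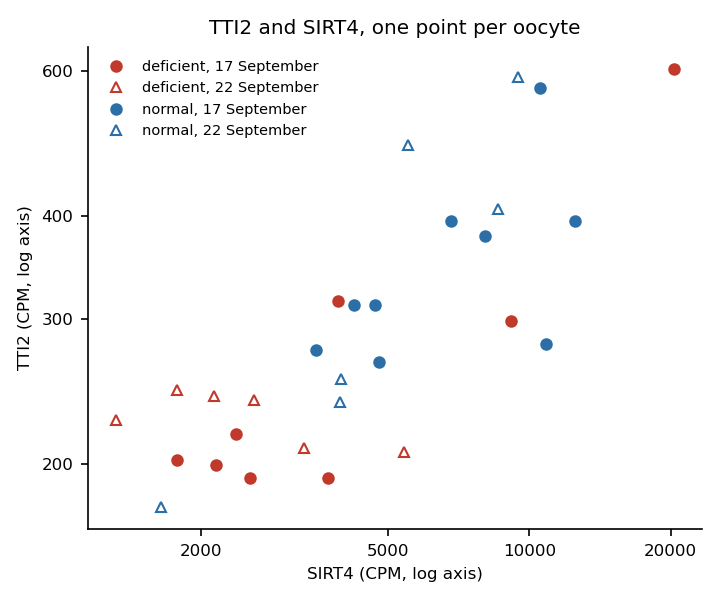
TTI2 against SIRT4 in CPM (both axes logarithmic), 1 point per oocyte, red deficient and blue normal, circles 17 September and triangles 22 September. Both genes rise together over all 29 oocytes (rho = 0.786), while rho is 0.248 among the 14 deficient oocytes. The point at 603 CPM of TTI2 and 20341 CPM of SIRT4 is a deficient oocyte.

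The partners of the members were described from lists of their pathways. In pools no gene of any list passed edgeR's test between the states, as in the 0% background. Of the 14 tested partners of the TTT complex (R2TP, HSP90 and casein kinase 2, which primes TELO2 for R2TP), 4 lay above 0 and 10 below, with a median log2 difference of -0.23 beside -0.0019 over all genes. The 3 most abundant in pools were RPAP3, which tethers HSP90 to R2TP, at 492 ± 139 CPM in deficient (SD, n = 5) and 468 ± 120.2 CPM in normal ones (SD, n = 6), and the casein kinase 2 subunits CSNK2A1, at 471 ± 84.6 and 503 ± 94.0 CPM, and CSNK2A2, at 669 ± 139 and 573 ± 71.6 CPM. By library type 4 of 15 rose, 7 fell and 4 were not called in single oocytes. The background for this and the following lists is the 69.1% of all genes that were called, 35.1% higher and 34.0% lower. The named partners were taken for a high level in pools, a choice that favours lower values in single oocytes, so their direction says nothing of the list here or below. RPAP3 stood at log2 -3.62, CSNK2A1 at -2.76 and CSNK2A2 at -2.20. Of those that rose, RUVBL2, a helicase of R2TP named after its value was seen, stood at log2 2.71.

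Among the complexes and regulators of MTOR, 6 of 17 lay above 0 and 11 below between the states in pools (median -0.11). RICTOR, which defines mTOR complex 2, stood at 322 ± 61.6 CPM in deficient against 275 ± 63.4 CPM in normal pools, the inhibitor DEPTOR at 256 ± 102 and 281 ± 52.7 CPM, and RRAGA, a GTPase that brings mTOR to lysosomes, at 457 ± 170.2 and 583 ± 175 CPM. By library type 7 of 20 rose and 9 fell in single oocytes. RICTOR was lower by log2 -2.92 and RRAGA by -1.12, while DEPTOR was not called (-0.09, edgeR adjusted p = 0.692). RPTOR, which defines mTOR complex 1, rose by log2 4.72 from a mean of 0.248 CPM in pools, and TSC2, an inhibitor of mTOR complex 1, by 3.13, both named after their values were seen.

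Of the checkpoint genes of ATM and ATR, 11 of 15 fell in single oocytes by library type, beside 34.0% of all genes, 2 rose and 2 were not called, with a median log2 difference of -2.61 beside 0.03 over all genes. RAD50, of the complex that senses breaks, was lower by log2 -3.84, BRCA1, a repair ubiquitin ligase, by -3.08 and TIPIN, a fork protection protein, by -3.79. Between the states in pools 9 of 15 lay above 0 and 6 below, with a median of 0.08. RAD50 stood at 740 ± 416 CPM in deficient against 497 ± 265 CPM in normal pools, BRCA1 at 606 ± 163 and 495 ± 107 CPM and TIPIN at 193 ± 26.4 and 202 ± 28.7 CPM, none of which passed.

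Of the end-joining partners of PRKDC, 5 of 8 lay above 0 between the states in pools and 3 below (median 0.07). XRCC4 stood at 99.8 ± 19.7 CPM in deficient against 104 ± 31.98 CPM in normal pools, its partner LIG4, the ligase of the pathway, at 82.7 ± 27.5 and 87.8 ± 20.99 CPM and the end-processing factor APLF at 101 ± 19.04 and 98.0 ± 21.3 CPM. By library type 3 of 10 rose, 4 fell and 3 were not called in single oocytes, with XRCC4 at log2 -1.77, LIG4 at -1.69 and APLF at -1.34.

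Of the decay factors around SMG1, 4 of 12 lay above 0 and 8 below between the states in pools (median -0.09). SMG8, a subunit that restrains SMG1, stood at 135 ± 47.6 CPM in deficient against 167 ± 55.4 CPM in normal pools, and MAGOH, of the exon junction complex, at 272 ± 44.6 and 262 ± 51.8 CPM. By library type 5 rose, 6 fell and 1 was not called, with SMG8 at log2 -1.55 and MAGOH at -3.91. UPF1, the helicase that SMG1 phosphorylates, rose by log2 3.63 (SE 0.41) from a mean of 1.77 CPM in pools (named after its value was seen).

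In the NuA4 and SAGA complexes around TRRAP, 10 of 27 lay above 0 and 17 below between the states in pools (median -0.18). The NuA4 subunits EPC1 and MBTD1 stood at 525 ± 116 and 402 ± 91.0 CPM in deficient against 553 ± 80.6 and 403 ± 89.8 CPM in normal pools, and SUPT7L, of SAGA, at 376 ± 89.9 and 443 ± 65.8 CPM. By library type 10 of 29 rose, 14 fell and 5 were not called in single oocytes. EPC1 was lower by log2 -2.61, MBTD1 by -2.83 and SUPT7L by -1.57, while TRRAP was not called.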

How the data were processed

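The authors deposited raw counts (whole numbers per gene, not normalized), in a table of 11 pools and a table of 29 single oocytes. The submitters' processing notes name the build Sscrofa10.2 and the tools TopHat2 2.0.14, Trim Galore, FastQC and edgeR. The counter and its strand setting were not given in the sources used here, so sense and antisense reads at a locus cannot be separated, and genes with near-identical copies are uncertain. Gene symbols are those of the files. No transcript lengths were at hand, so levels are compared between libraries and not between genes, and no coordinates or sequences are given.

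The row that names no gene (1.05% to 4.75% of a pool's counts, 0.648% to 8.15% of an oocyte's) was left out. No libraries of a group agreed within sampling noise (smallest chi-square per degree of freedom 35.0 in pools, 4.09 in oocytes). Genes were tested in R 4.3.3 with edgeR 4.0.16 (quasi-likelihood test, default filter, TMM, Benjamini-Hochberg over all genes, threshold 0.05). DESeq2 1.42.0, limma-voom (limma 3.58.1), RLE size factors, no filter, blocks, dates and leaving out each library were alternatives. The fits were tested on simulated data. Oocytes were summed by state and first title number. Those numbers deviated together across states (r = 0.143, 0.220 and 0.165 for numbers 2, 3 and 4, against -0.149 to 0.0244 for other pairs), so the 6 sums that share one were treated as paired in the block fit, with the pairing taken from the titles. Oocytes of numbers 1 and 3 all carry the date of 17 September and those of number 2 that of 22 September, while number 4 has both. Title number and date can therefore not be told apart in these correlations or in the block. Permutation tests were two-sided with 100000 permutations. The likeness used log2 CPM with a prior count of 2.

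The members and lists were chosen with earlier results of these data known. The named genes are all members, the 3 genes of each list with the highest mean CPM in pools with up to 4 past the threshold between states in pools, and the 3 genes most like TTI2 in each table. A gene that this rule takes is not reported here.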

Additional observations from a re-analysis of the deposited data

Results flagged for a closer look

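In 56 groups of 4 to 10 samples, 6 member levels lay far from the rest of their group by Dixon's criterion, which chance meets in about 1 in 20 groups. In pools these were TTI1 in deficient B2 (10.5 CPM, the other 4 between 0.898 and 2.47 CPM), TTI2 in normal A3 (16.2 CPM, the other 5 between 34.8 and 45.7 CPM) and ATM in normal B2 (104 CPM, the other 5 between 188 and 221 CPM). Among normal oocytes of 22 September, TTI1 in 1 oocyte of title number 2 stood at 40.4 CPM against 0 to 8.66 CPM in the other 5. Among those of 17 September, TTI2 stood at 603 CPM in 1 deficient oocyte of title number 4 against 192 to 315 CPM in the other 7, and at 572 CPM in 1 normal oocyte of title number 4 against 266 to 394 CPM in the other 8. Both oocytes with high TTI2 also had high SIRT4, at 20341 and 10534 CPM.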

How the results depend on the processing

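Over the alternatives, no member passed the threshold between states in pools, and the 6 called members kept their sign between library types. The number of genes called between states in pools was 0 in each edgeR and limma-voom setting and 28 by DESeq2. In the single-oocyte sums it was 0, and 4 with no filter, 2 by DESeq2, 2 with the replicate block on 6 sums, 1 with each oocyte as a sample, 1 with the date as a covariate and 2 within 17 September. Leaving out 1 library gave 0 to 0 calls in both. Pool codes A2, A3, B2 and B4 occur in both states, and the labels do not say that they pair samples. Their deviations correlated by -0.105, 0.127, 0.476 and 0.0782, the pair of B2 being the most alike of all. Not every pair lay above 0.1, a cut chosen here, and the main fit did not take the codes as pairs. The replicate block on those 8 pools called 0 genes, as did edgeR in the same pools without it. Genes with unadjusted p under 0.05 by edgeR numbered 1062 with the block and 524 without. TTI2 stood at 0.42 (SE 0.31) with it and 0.46 (SE 0.33) without. MTOR stood at -0.72 (SE 0.39) and -0.72 (SE 0.47), and ATM at 0.34 (SE 0.21) and 0.37 (SE 0.39). Signs in pools turned with genes detected as a covariate for ATM (-0.25), ATR (-0.027), PRKDC (0.0253) and MTOR (0.14), and without deficient B2 for TTI1 (-0.52, up to 0.57 without another pool). Without a library, TTI2 ranged from 0.16 to 0.44 in pools and from -0.95 to -0.68 in the sums. Between library types PRKDC turned to 0.0904 under RLE factors, 0.0858 under DESeq2 and 0.0264 in deficient libraries alone, and TRRAP passed under RLE factors, DESeq2 (both 0.69) and with each oocyte as a sample (0.46). Depth limits TELO2 most (8 counts over all oocytes), and TTI1 and ATR, with as few as 0 and 1 counts in an oocyte.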
